A study of Homo sapiens with 4 samples.

Results

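The 47 genes examined here encode the machinery that licenses replication origins and copies DNA at the fork. They include the 6 subunits of the origin recognition complex, 3 licensing factors, the MCM2-7 helicase, and the GINS, CDC45 and MCM10 proteins that activate it. Primase and the replicative polymerases, the PCNA clamp and its loader, and 2 enzymes that process and seal Okazaki fragments belong to them. So do replication protein A, 3 fork protection proteins and 3 proteins that make deoxynucleotides. The 47 genes were selected by gene name, with earlier results of these data known. All 47 were found among the 31907 gene names that had a count in at least 1 library. The libraries came from HGC-27, a line established from a human gastric carcinoma, and the study asked what recombinant IL-17B (rIL-17B), a cytokine of the IL-17 family, did to such cells. There were 2 libraries of cells given PBS as the control and 2 libraries of cells given rIL-17B at 200 ng/ml, both collected after 48 h. All 4 libraries were made from total RNA by Smart-seq2, in which an oligo-dT primer starts the cDNA and PCR amplifies it, and the labels do not say whether replicates were separate cultures, so the spread between them may be technical.

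Before a cell can copy its genome, the origin recognition complex, CDC6 and CDT1 load MCM2-7 rings onto origins in G1, and geminin (GMNN) holds CDT1 in check afterwards so that no origin is licensed again in the same cycle. In S phase CDC45 and GINS join the ring to form the active CMG helicase, primase with polymerase alpha lays down primers, polymerases epsilon and delta extend them on the PCNA clamp, and FEN1 and LIG1 process and seal the lagging strand. Many of these genes are transcribed through E2F factors in late G1 and S phase, so their summed RNA is often used as a readout of how many cells are cycling.

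The 2 rIL-17B libraries were unlike each other, and this bears on all values reported. Library totals lay between 12888029 and 17555879 counts. The fitted biological coefficient of variation was 0.443 over all 4 libraries and 0.0622 between the 2 PBS libraries alone. Summed over 8 mesenchymal markers, the level was 51146 and 50184 CPM (the count divided by the library total, times 1000000) under PBS, 1007 CPM in rIL-17B replicate 1 and 42776 CPM in rIL-17B replicate 2. FN1, which encodes fibronectin, stood at 33131, 32458, 149 and 27450 CPM in the same order. COL1A2, a type I collagen chain, stood at 5516, 5248, 1.09 and 4699 CPM. By these genes rIL-17B replicate 1 lay far from the PBS libraries and replicate 2 nearer to them, but below both. In replicate 2 FN1 was at 0.84-fold and COL1A2 at 0.87-fold the PBS mean. The 12 gastric epithelial markers summed to 802 and 811 CPM under PBS and to 1858 and 1030 CPM under rIL-17B, carried by KRT8 and KRT18. KRT19 on the same list had 2.96 and 3.34 CPM under PBS, 0.068 CPM (1 count) in rIL-17B replicate 1 and 3.30 CPM in replicate 2, while TFF1 was at 0 in all 4 libraries and CDH1 was at most 0.753 CPM. The 8 neural markers summed to 406 and 623 CPM under PBS and to 59.7 and 303 CPM under rIL-17B, with NCAM1 and OLIG2 at 0 in rIL-17B replicate 1 and SOX10 at 0 throughout. The library protocol in the labels speaks of monocytes, and the 12 monocyte markers summed to between 8.62 and 15.0 CPM, with 8 of them at 0 in rIL-17B replicate 1. The part of these other genes in the values of the replication genes was not tested, so each rIL-17B library is set against the PBS pair on its own as well as together.

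**Figure D1:**
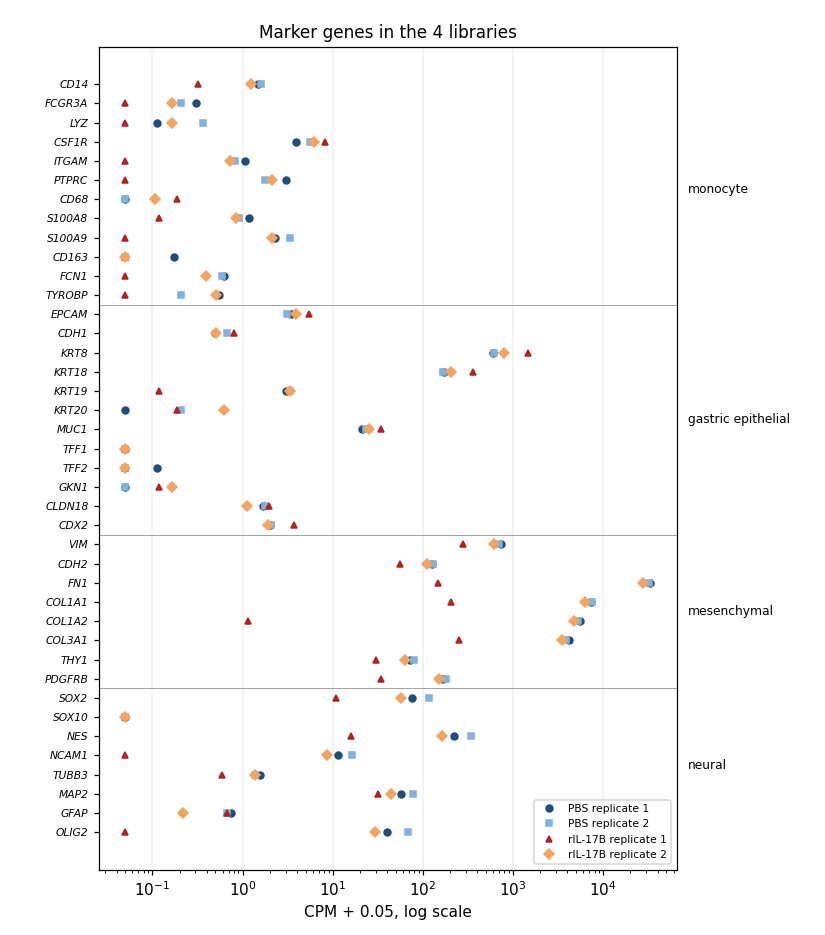
CPM plus 0.05 on a log axis for the 40 marker genes of 4 lists, with 1 point for each of the 4 libraries. rIL-17B replicate 1 (red triangles) lies left of the other 3 libraries for all 8 mesenchymal genes, from CDH2 at 55.8 CPM against 112 CPM or more to COL1A2 at 1.09 CPM against 4699 CPM or more, and to their right for KRT8 and KRT18.

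Nearly all replication genes were higher under rIL-17B than under PBS, with a median fold of 1.85 in rIL-17B replicate 1 and of 1.16 in replicate 2. Added together, the 47 genes held 3356 and 3355 CPM in the PBS libraries, 6312 CPM in rIL-17B replicate 1 and 3907 CPM in rIL-17B replicate 2, which is 1.88-fold and 1.16-fold the PBS mean. The PBS libraries were nearly the same for these genes, with a median absolute log2 ratio of 0.08 between them and a largest of 0.38, for PRIM2. In rIL-17B replicate 1 the median log2 ratio of the members to the PBS mean was 0.89, with a range from 0.15 for ORC4 to 1.30 for GINS4. The median of all 16361 tested genes was 0.09 there. That median lay left of the main body of genes, whose fullest bin ran from 0.4 to 0.5 (6.61% of genes). A further 14.8% of genes lay below -1.9, so the distance of the members from the main body is smaller than that from the median. In rIL-17B replicate 2 the members had a median of 0.21 and ran from -0.15 for POLE2 to 0.69 for GINS1, beside 0.00 for all tested genes. Every one of the 47 was higher in rIL-17B replicate 1 than in replicate 2. In bulk RNA a larger share of cells in S phase and more of these transcripts per cell cannot be told apart. For replicate 1, whose marker genes differ so widely, neither can be told apart from a different population of cells, and whether it came from the same culture as the other 3 libraries was not tested. The marker sums of replicate 2 also lay outside the PBS pair, though by less. Its mesenchymal sum was 42776 CPM against 50184 or more, its neural sum 303 against 406 or more and its epithelial sum 1030 against 811 or less. For replicate 2, too, a different mix of cells cannot be told apart.

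**Figure D2:**
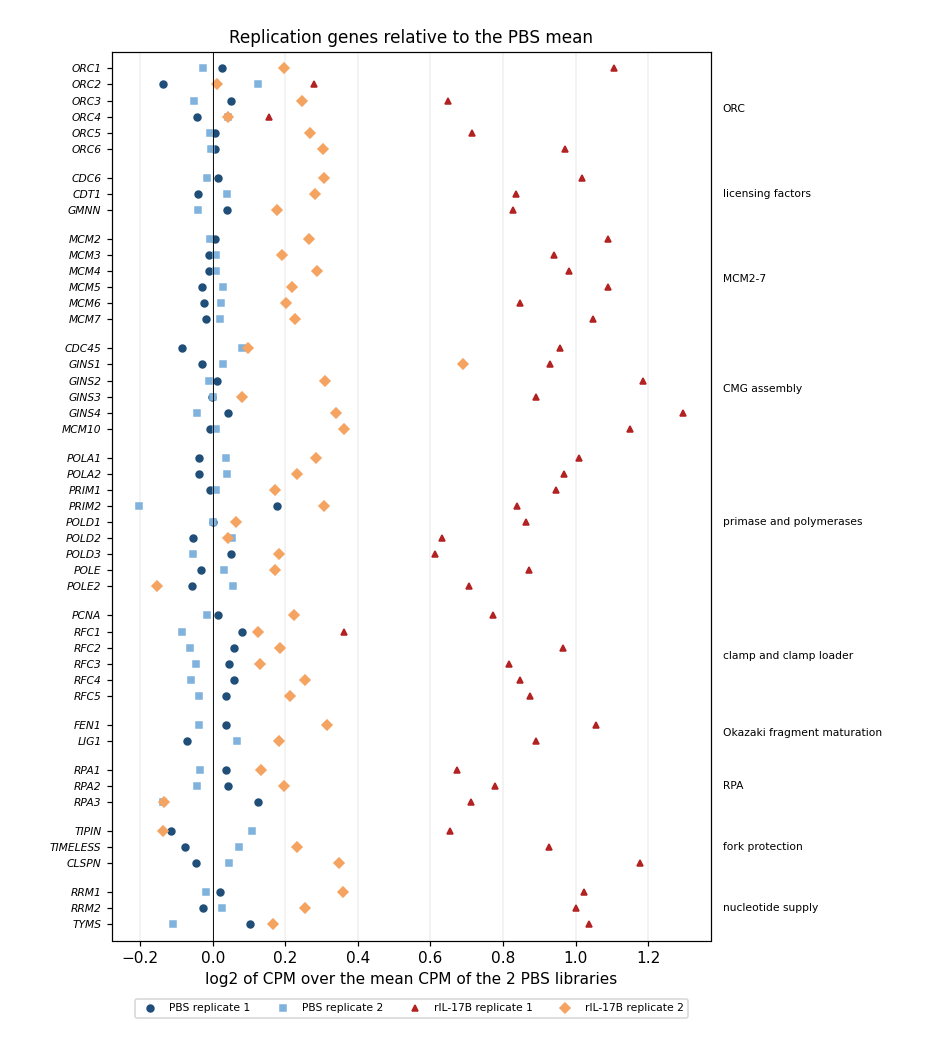
The log2 ratio of each of the 47 genes to the mean CPM of the 2 PBS libraries, with 1 point per library and the genes grouped by role. The PBS points lie within 0.21 of 0, the rIL-17B replicate 2 points mostly between 0 and 0.36 with GINS1 at 0.69, and the rIL-17B replicate 1 points mostly between 0.61 and 1.30, with ORC4, ORC2 and RFC1 near the PBS points.

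Counted without a test, 41 of the 47 members lay above both PBS libraries in each rIL-17B library, a pattern found in 31.5% of all tested genes, and 0 members lay below both PBS libraries in each, a pattern found in 27.5%. The 6 members whose groups overlapped were ORC2, ORC4, POLD2, POLE2, RPA3 and TIPIN. Taken alone, rIL-17B replicate 1 exceeded both PBS libraries in all 47 members (50.1% of tested genes), and by at least 1.5-fold in 41 of them (15.0%). Taken alone, rIL-17B replicate 2 exceeded both PBS libraries in 41 members (37.0%) and fell below both in 2, POLE2 and TIPIN (36.1%), but only GINS1 passed 1.5-fold (1.07%). No decrease reached 1.5-fold in either library: 0 members were that far below both PBS libraries in replicate 1 (24.0% of tested genes) and 0 in replicate 2 (3.66%). With TMM scaling, which moves the median of all tested genes in rIL-17B replicate 1 from 0.09 to -0.05 on the log2 scale, the medians of the members were 0.75 and 0.21, and ORC4 no longer exceeded both PBS libraries in replicate 1.

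**Figure D3:**
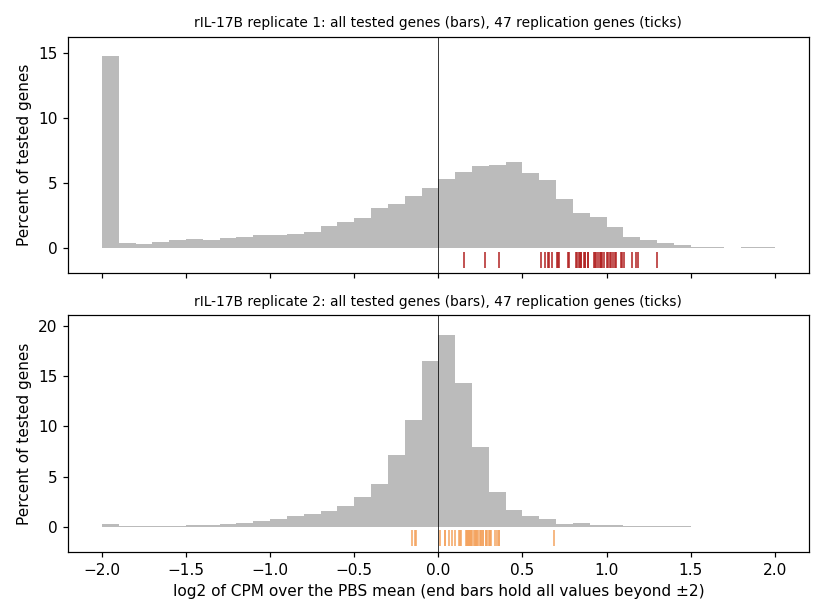
Histograms for the 16361 tested genes of log2 CPM over the PBS mean, as percent of genes in bins of 0.1, with rIL-17B replicate 1 above and replicate 2 below. The ticks under the bars mark the 47 replication genes. In the upper panel they lie mostly on the right side of the main body of genes, with ORC4, ORC2 and RFC1 within it. The medians there are 0.89 against 0.09, with 14.8% of all genes in the bar at the left edge. In the lower panel they lie mostly within the right flank (median 0.21 against 0.00), with POLE2, RPA3 and TIPIN left of 0.

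The origin recognition complex marks the sites where replication can start, and its 6 subunits did not move alike. Summed, they went from 220.2 and 222 CPM under PBS to 370 CPM in rIL-17B replicate 1 and 253 CPM in replicate 2. ORC1, the subunit whose level is cell cycle regulated, had 47.3 and 45.7 CPM under PBS and 100.1 and 53.3 CPM under rIL-17B. ORC6, the smallest subunit, had 46.0 and 45.7 CPM under PBS and 89.9 and 56.6 CPM under rIL-17B. For both, rIL-17B replicate 1 was far above the PBS pair (2.15-fold and 1.96-fold the PBS mean) and replicate 2 was higher by far less (1.15-fold and 1.23-fold). ORC5 had 26.1 and 25.8 CPM under PBS and 42.6 and 31.3 CPM under rIL-17B, without overlap. ORC3 lay at 43.9 and 40.9 CPM under PBS and at 66.5 and 50.3 CPM under rIL-17B. ORC4 stood apart, with 29.1 and 30.9 CPM in the PBS libraries and 33.4 and 30.9 CPM in the rIL-17B libraries, and it was the member nearest to its PBS level in replicate 1. ORC2 likewise overlapped, at 27.7 and 33.3 CPM under PBS and 37.0 and 30.8 CPM under rIL-17B. Within a library, where no scaling enters, the ratio of ORC1 to ORC2 counts was 1.71 and 1.37 under PBS, 2.70 in rIL-17B replicate 1 and 1.73 in replicate 2. The ratio of ORC6 to ORC4 counts was 1.58 and 1.48 under PBS and 2.69 and 1.83 under rIL-17B. Both rIL-17B libraries thus lay above the PBS pair for each ratio, but for ORC1 to ORC2 replicate 2 did so barely (1.73 against 1.71). The ratios restate the counts of these subunits and add no separate result.

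The licensing factors were all higher in both rIL-17B libraries. CDC6, the ATPase that loads the helicase together with the origin recognition complex, was at 92.9 and 90.9 CPM under PBS and at 186 and 114 CPM under rIL-17B. CDT1, its partner in loading, was at 50.4 and 53.3 CPM under PBS and at 92.5 and 63.0 CPM under rIL-17B. GMNN, which inhibits CDT1, was at 87.5 and 82.9 CPM under PBS and at 151 and 96.3 CPM under rIL-17B. The loader and its inhibitor kept their proportion: CDT1 had 0.577 and 0.643 counts for each GMNN count under PBS and 0.612 and 0.654 under rIL-17B, so the 2 groups overlapped in this ratio.

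The MCM2-7 helicase took the largest share of the member counts, and each of its 6 subunits was higher in both rIL-17B libraries. Their sum was 1084 and 1102 CPM under PBS, 2199 CPM in rIL-17B replicate 1 and 1287 CPM in replicate 2, or 2.01-fold and 1.18-fold the PBS mean. MCM2 had 188 and 186 CPM under PBS and 397 and 224 CPM under rIL-17B. MCM3 had 216 and 219 CPM under PBS and 417 and 249 CPM under rIL-17B. For MCM4 the PBS libraries gave 212 and 215 CPM and the rIL-17B libraries 422 and 261 CPM. In these 3 genes the PBS libraries were close together, both rIL-17B libraries lay above them, and replicate 1 was far above replicate 2. MCM5 had 101 and 105 CPM under PBS and 220.0 and 120.2 CPM under rIL-17B. MCM6, with 94.8 and 98.0 CPM in PBS, reached 173 and 111 CPM under rIL-17B. MCM7 (chr7:100092728-100101940, minus strand, GENCODE 29 on GRCh38) had 271 and 278 CPM under PBS and 568 and 321 CPM under rIL-17B. Its locus also holds AP4M1 on the opposite strand and MIR106B, MIR25 and MIR93 within it, and the use of strand in counting is not given in the sources used here, so its count may include reads of AP4M1. MCM2 likewise overlaps TPRA1 on the opposite strand.

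The subunits kept nearly the same proportions in all 4 libraries. MCM2 took 17.3% and 16.9% of the MCM2-7 counts under PBS and 18.1% and 17.4% under rIL-17B, and MCM7 took 25.0% and 25.3% under PBS and 25.9% and 25.0% under rIL-17B. MCM6 had a slightly smaller share in rIL-17B replicate 1, 7.89%, than in the other 3 libraries, where it had between 8.62% and 8.89%. Per kb of exon the order was MCM7, MCM3, MCM2, MCM4, MCM6 and MCM5 in each library, with 61.8 and 63.4 CPM per kb for MCM7 and 13.8 and 14.4 CPM per kb for MCM5 in the PBS libraries. MCM7 and MCM3 were neighbours in that order, MCM3 having 59.3 and 60.0 CPM per kb under PBS. Among all 47 members PCNA had the highest level per kb in each library, with 101 and 98.7 CPM per kb in PBS, 170.5 in rIL-17B replicate 1 and 117 in replicate 2. These levels divide by the union of all annotated exons, so a gene with long rarely used exons comes out lower.

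**Figure D4:**
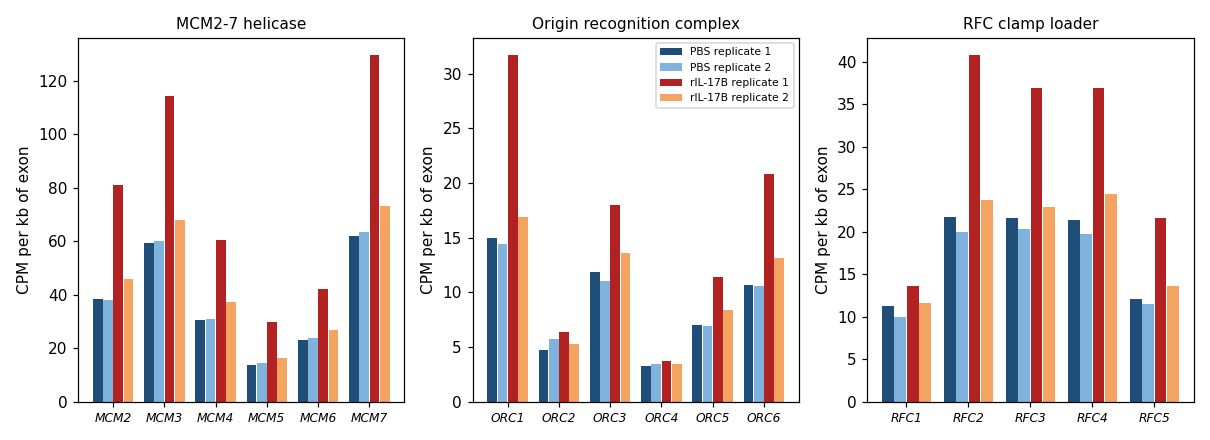
CPM per kb of exon for the subunits of the MCM2-7 helicase, the origin recognition complex and the RFC clamp loader, with 1 bar per library and axes that start at 0. All MCM subunits are higher in rIL-17B replicate 1, from 1.80-fold the PBS mean for MCM6 to 2.13-fold for MCM2 and MCM5, while ORC2, ORC4 and RFC1 stay under 1.5-fold.

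Because E2F factors drive many of these genes, the promoters of the members were searched for the E2F-type letters TTTCCCGC, TTTCGCGC, TTTGCCGC and TTTGGCGC on both strands, from 250 bases before to 50 bases after each start listed by RefSeq on GRCh38.p14. Promoters were found for 41 of the 47 members, all but MCM4, MCM5, GINS4, POLD3, RPA2 and RPA3. At least 1 match was present in 21 of the 41 (51.2%), in 13 of 55 (23.6%) other replication genes and in 713 of 11138 tested genes with a promoter (6.4%), at 1.27 windows per member and 1.47 per tested gene. The letters CCAAT, searched in the same way, were present in 63.4% of the members and 43.0% of the tested genes. The 120 bases before the start are shown for 6 of the members that hold a match there, MCM6 and MCM7 being subunits of the same helicase. They are given 5′ to 3′ on the strand of the gene, with the matched letters in capitals.
CDT1 (chr16:88803669-88803788, plus strand): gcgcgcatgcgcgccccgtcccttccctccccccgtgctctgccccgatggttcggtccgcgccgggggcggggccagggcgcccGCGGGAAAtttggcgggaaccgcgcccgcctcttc
MCM6 (chr2:135876444-135876563, minus strand): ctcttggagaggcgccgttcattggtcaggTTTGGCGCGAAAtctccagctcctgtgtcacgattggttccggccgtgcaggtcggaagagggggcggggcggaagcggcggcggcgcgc
MCM7 (chr7:100101398-100101517, minus strand): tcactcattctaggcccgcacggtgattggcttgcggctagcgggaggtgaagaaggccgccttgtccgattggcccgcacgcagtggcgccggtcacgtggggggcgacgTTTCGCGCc
GINS2 (chr16:85688955-85689074, minus strand): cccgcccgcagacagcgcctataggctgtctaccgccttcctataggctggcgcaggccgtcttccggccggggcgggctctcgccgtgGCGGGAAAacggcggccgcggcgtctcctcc
POLE (chr12:132687343-132687462, minus strand): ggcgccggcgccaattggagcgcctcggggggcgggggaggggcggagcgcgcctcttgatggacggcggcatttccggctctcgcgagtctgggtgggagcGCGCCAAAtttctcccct
PCNA (chr20:5126623-5126742, minus strand): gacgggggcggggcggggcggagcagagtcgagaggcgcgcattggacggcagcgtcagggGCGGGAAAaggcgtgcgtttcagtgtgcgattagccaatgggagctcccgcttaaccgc
In MCM6 the capitals hold 2 overlapping matches, 1 on each strand. For contrast, the same stretch is shown for the 3 members under 1.5-fold in rIL-17B replicate 1 and for MCM10 and RRM1, which were over 2-fold there, and none of the 5 holds a match.
ORC2 (chr2:200963661-200963780, minus strand): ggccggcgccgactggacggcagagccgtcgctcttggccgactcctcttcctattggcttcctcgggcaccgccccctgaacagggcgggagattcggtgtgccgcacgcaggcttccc
ORC4 (chr2:148021552-148021671, minus strand): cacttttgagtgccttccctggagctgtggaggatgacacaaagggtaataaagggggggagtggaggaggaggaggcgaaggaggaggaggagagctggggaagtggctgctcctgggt
RFC1 (chr4:39366363-39366482, minus strand): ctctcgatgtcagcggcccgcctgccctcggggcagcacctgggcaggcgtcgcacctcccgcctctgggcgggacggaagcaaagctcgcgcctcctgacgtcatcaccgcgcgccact
MCM10 (chr10:13161438-13161557, plus strand): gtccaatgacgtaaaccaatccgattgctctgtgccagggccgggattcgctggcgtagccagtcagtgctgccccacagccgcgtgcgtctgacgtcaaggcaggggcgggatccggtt
RRM1 (chr11:4094565-4094684, plus strand): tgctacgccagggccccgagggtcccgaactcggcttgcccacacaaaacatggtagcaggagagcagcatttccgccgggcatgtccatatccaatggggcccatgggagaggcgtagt
A match is a description of the letters and not evidence of a bound site. Only these exact letters were searched, so members without a match may hold other forms of the site. The split therefore does not sort the members by regulation through E2F, which was not tested. The 21 members with a match had median log2 ratios of 0.89 and 0.22 in rIL-17B replicates 1 and 2, and the 20 without had 0.90 and 0.20, close to each other in both libraries.

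CDC45, the 4 GINS subunits and MCM10 turn the loaded MCM ring into a moving helicase, and in rIL-17B replicate 1 they had the largest summed ratio of the 10 roles. Their sum was 117 and 119.6 CPM under PBS, 251 CPM in rIL-17B replicate 1 and 146 CPM in replicate 2, or 2.12-fold and 1.23-fold the PBS mean. GINS1 had 192 and 162 counts under PBS and 343 and 349 under rIL-17B, which is 12.1 and 12.6 CPM against 23.5 and 19.9 CPM. At 1.90-fold and 1.61-fold the PBS mean, it was the single member past 1.5-fold in both rIL-17B libraries. MCM10, which helps CMG start to unwind DNA, had 25.9 and 26.2 CPM under PBS and 57.9 and 33.5 CPM under rIL-17B. The other 4 genes of the group were also higher in both rIL-17B libraries, but unevenly in replicate 2, where CDC45 and GINS3 were at 1.07-fold and 1.06-fold the PBS mean and GINS2 and GINS4 at 1.24-fold and 1.27-fold. In rIL-17B replicate 1 GINS4 had the largest ratio of all members, 2.46-fold.

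Primase and the polymerases make and extend the new strands, and 7 of their 9 genes were higher in both rIL-17B libraries. POLA1, the catalytic subunit of polymerase alpha, had 67.2 and 70.8 CPM under PBS and 139 and 84.0 CPM under rIL-17B. POLA2, its regulatory subunit, had 45.9 and 48.4 CPM under PBS and 92.2 and 55.4 CPM under rIL-17B. POLE, the catalytic subunit of the leading strand polymerase epsilon, had 127 and 133 CPM under PBS and 237 and 146 CPM under rIL-17B. These 3 showed the common pattern, with replicate 1 well above and replicate 2 a little above the PBS pair. POLE2, the accessory subunit of polymerase epsilon, differed: 11.7 and 12.6 CPM under PBS, 19.8 CPM in rIL-17B replicate 1 and 10.9 CPM in replicate 2, the latter below both PBS libraries. The other member of the group that overlapped was POLD2, at 121 and 129.9 CPM under PBS and 194 and 129 CPM under rIL-17B. The catalytic subunit of polymerase delta, POLD1, was at 43.4 CPM in both PBS libraries and at 79.0 and 45.3 CPM under rIL-17B.

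PCNA, the sliding clamp that holds polymerases on DNA, had 148 and 145 CPM under PBS and 251 and 172 CPM under rIL-17B. Its loader is made of RFC1 to RFC5, and RFC4 had 63.9 and 59.0 CPM under PBS and 111 and 73.3 CPM under rIL-17B. RFC5 had 39.2 and 37.2 CPM under PBS and 70.1 and 44.3 CPM under rIL-17B. RFC1, the large subunit, was closer to its PBS level than the 4 small subunits: 75.4 and 67.3 CPM under PBS and 91.6 and 77.8 CPM under rIL-17B, or 1.28-fold and 1.09-fold the PBS mean, beside 1.76-fold to 1.95-fold and 1.09-fold to 1.19-fold for RFC2 to RFC5. Accordingly the ratio of RFC4 to RFC1 counts was 0.848 and 0.877 under PBS, 1.21 in rIL-17B replicate 1 and 0.942 in replicate 2. RFC4 shares its locus with EIF4A2 on the opposite strand, which limits this ratio.

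FEN1, the flap endonuclease that trims Okazaki fragments, had 113 and 107 CPM under PBS and 228 and 136 CPM under rIL-17B. LIG1, the ligase that seals them, had 35.7 and 39.3 CPM under PBS and 69.6 and 42.5 CPM under rIL-17B. Both enzymes lay above the PBS pair in each rIL-17B library. FEN1 overlaps FADS2 and TMEM258, so its count may include reads of these. The single-strand binding protein RPA differed less from PBS than the helicase, with a sum of 243 and 228 CPM in PBS and of 382 and 257 CPM under rIL-17B. Its large subunit RPA1 was at 172 and 164 CPM under PBS and at 268 and 184 CPM under rIL-17B, and RPA2 was at 48.5 and 45.7 CPM under PBS and at 80.9 and 53.9 CPM under rIL-17B. RPA3, the smallest subunit, overlapped, with 22.3 and 18.5 CPM in PBS, 33.4 CPM in rIL-17B replicate 1 and 18.6 CPM in replicate 2.

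Among the fork protection genes CLSPN, which passes the replication stress signal to CHK1, had 31.2 and 33.3 CPM under PBS and 72.9 and 41.1 CPM under rIL-17B. TIMELESS had 85.8 and 95.2 CPM under PBS and 172 and 106 CPM under rIL-17B. TIPIN, the partner protein of TIMELESS, did not follow it in replicate 2: it had 14.1 and 16.5 CPM under PBS, 24.2 CPM in rIL-17B replicate 1 and 14.0 CPM in replicate 2. The 3 members under their PBS mean in replicate 2 were thus POLE2, RPA3 and TIPIN, each a partner subunit of a member that was above its PBS mean there (POLE, RPA1 and TIMELESS).

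The enzymes that supply deoxynucleotides were among the groups with the largest ratios, 2.03-fold in rIL-17B replicate 1 and 1.25-fold in replicate 2 for the sum of RRM1, RRM2 and TYMS. RRM1, the large subunit of ribonucleotide reductase, had 163 and 159 CPM under PBS and 327 and 206 CPM under rIL-17B. RRM2, the S phase small subunit, had 66.6 and 69.1 CPM under PBS and 136 and 80.9 CPM under rIL-17B. TYMS, thymidylate synthase, had 22.2 and 19.2 CPM under PBS and 42.4 and 23.2 CPM under rIL-17B. The 2 reductase subunits kept nearly the same proportion, with 2.44 and 2.30 RRM1 counts for each RRM2 count in PBS and 2.41 and 2.55 under rIL-17B. The alternative small subunit RRM2B, a p53 target outside the 47, was lower under rIL-17B, with 66.0 and 63.5 CPM in PBS and 22.0 and 56.0 CPM under rIL-17B, so that the ratio of RRM2 to RRM2B counts was 1.01 and 1.09 under PBS, 6.16 in rIL-17B replicate 1 and 1.45 in replicate 2. Reads of the pseudogene RRM2P3 came to 8 and 5 counts under PBS and 0 and 6 under rIL-17B. TYMS overlaps ENOSF1 and TYMSOS, and RRM1 overlaps RRM1-AS1, all on the opposite strand.

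**Figure D5:**
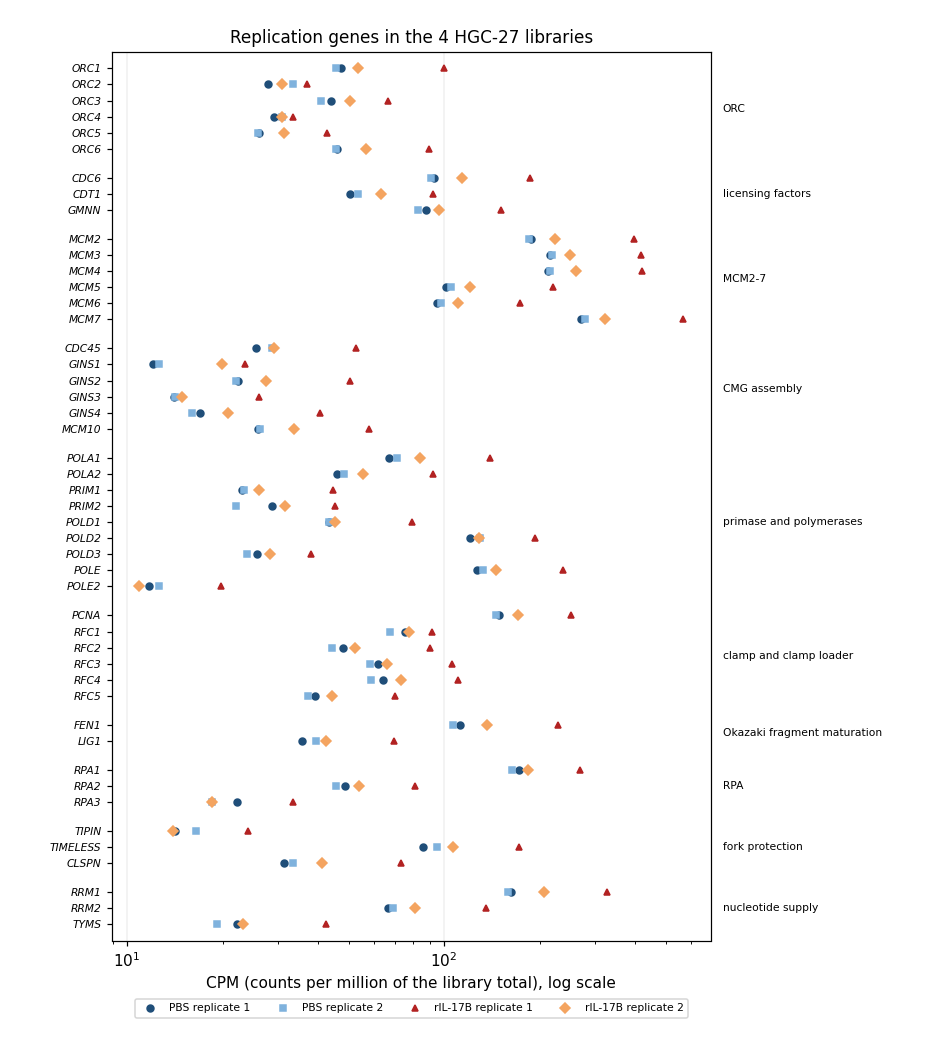
CPM on a log axis for each of the 47 genes in the 4 libraries, grouped by role. For each gene the red triangle of rIL-17B replicate 1 is the rightmost point, and the orange diamond of replicate 2 lies between it and the PBS points for 41 genes.

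Across the 10 roles the summed CPM of rIL-17B replicate 1 ran from 1.62-fold (RPA) and 1.67-fold (origin recognition complex) to 2.03-fold (nucleotide supply) and 2.12-fold (CMG assembly) the PBS mean. In rIL-17B replicate 2 the range was from 1.09-fold (RPA) to 1.25-fold (nucleotide supply). The share of the member counts that fell on MCM2-7 was 32.3% and 32.8% under PBS and 34.8% and 32.9% under rIL-17B, and that of the origin recognition complex was 6.56% and 6.63% under PBS and 5.85% and 6.48% under rIL-17B. Members with and without overlap with other counted genes had much the same values: the 26 members that overlap none had median log2 ratios of 0.91 and 0.21 in the 2 rIL-17B libraries, and the 21 that overlap at least 1 had 0.89 and 0.21.

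No member passed the test over both groups, where the spread between the rIL-17B libraries is large. With edgeR's quasi-likelihood test and Benjamini-Hochberg adjustment over 16361 genes, 0 genes (0.0%) and 0 members had an adjusted p under 0.05, 226 genes (1.38%) and 2 members, GINS1 and RRM1, had an unadjusted p under 0.05, and DESeq2 also called 0 genes, with 457 genes (2.79%) and 13 members at an unadjusted p under 0.05. All 47 members had a positive log2 fold change in edgeR, with a median of 0.50 beside -0.03 for all tested genes. GINS1 had a log2 fold change of 0.74 with a standard error of 0.15 (edgeR adjusted p = 0.661) and RRM1 of 0.65 with a standard error of 0.22 (edgeR adjusted p = 0.661). Standard errors given here were derived from the test, as the absolute log2 fold change divided by the square root of its F statistic. The largest fitted change was that of GINS4, 0.80 with a standard error of 0.33, and the smallest that of ORC4, 0.03 with a standard error of 0.11. The standard deviation between the rIL-17B libraries exceeded that between the PBS libraries in all 47 members, as for MCM2, with 187 ± 1.31 CPM (SD, n = 2) under PBS and 311 ± 122 CPM (SD, n = 2) under rIL-17B. For a single gene, 2 libraries a group allow an exact permutation p (two-sided) of 0.333 at the lowest.

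The calls depended on which rIL-17B library was used. With rIL-17B replicate 1 left out, so that replicate 2 was set against the PBS pair and was assumed to vary as that pair did, edgeR called 504 of 17103 genes (2.95%), of which 110 were higher (0.643%) and 394 lower (2.3%). Of the members 5 were called, all higher: GINS1 (log2 fold change 0.69, edgeR adjusted p = 0.00247), RRM1 (0.36, 0.00325), FEN1 (0.31, 0.0228), MCM4 (0.28, 0.0323) and CDC6 (0.30, 0.0385). In that fit 44 members were higher and POLE2, RPA3 and TIPIN lower, with a median log2 fold change of 0.21. With rIL-17B replicate 2 left out, edgeR called 9489 of 17223 genes (55.1%), of which 3989 were higher (23.2%) and 5500 lower (31.9%), and 45 of the 47 members were called higher, with a median log2 fold change of 0.76. The 2 that were not called were ORC2 (edgeR adjusted p = 0.32) and ORC4 (edgeR adjusted p = 0.909). MCM2 had a log2 fold change of 0.95 (edgeR adjusted p = 1.4e-30) in this fit. Each of these fits has a single rIL-17B library, so it compares that library with the PBS pair and has no replicate of the treatment.

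A further 69 genes that act in replication but are not among the 47, such as the kinases that fire origins, E2F and RB family members, chromatin assembly factors and checkpoint proteins, were followed as a reference, and 68 of them passed the filter on low counts. In edgeR 0 of the 68 were called, as were 0.0% of all tested genes. An unadjusted edgeR p under 0.05 was found for 5 of the 68 and for 1.38% of all tested genes. DESeq2 also called 0, with 8 of the 68 and 2.79% of all tested genes at an unadjusted p under 0.05. Without a test, 47 of the 68 lay above both PBS libraries in each rIL-17B library and 3 lay below both in each, where all tested genes gave 31.5% and 27.5%. The median fitted log2 fold change was 0.37, with 58 higher and 10 lower. The 5 with the smallest p were TK1, CDC7, UNG, CDK2 and DSCC1. TK1, the thymidine salvage kinase of S phase, had 78.0 and 78.4 CPM under PBS and 176 and 105 CPM under rIL-17B. CDC7, the kinase that phosphorylates MCM subunits at origins, had 29.2 and 29.4 CPM under PBS and 45.9 and 35.9 CPM under rIL-17B. UNG, which removes uracil from DNA, had 64.6 and 62.8 CPM under PBS and 113 and 78.8 CPM under rIL-17B. These followed the pattern of the members, as did CDK2, with 36.2 and 33.9 CPM against 65.1 and 44.1 CPM, and DSCC1 of the alternative clamp loader, with 21.1 and 19.5 CPM against 31.3 and 25.5 CPM. The 10 with a negative log2 fold change were E2F5, POLD4, RAD17, RAD9A, RB1, RRM2B, SAMHD1, TFDP2, TOP1 and TOP2B. With rIL-17B replicate 1 left out the median fitted log2 fold change of the 68 was 0.19, beside -0.01 for all tested genes. With replicate 2 left out it was 0.50, beside -0.06 for all tested genes. In each of these fits 57 of the 68 were higher and 11 lower.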

How the data were processed

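RNA of 4 HGC-27 libraries (2 PBS, 2 rIL-17B) was sequenced after Smart-seq2. The authors deposited counts, whole numbers of reads per gene name without normalization. The submitters' processing notes name HISAT2 2.1.0, Bowtie2 2.2.3, TopHat2, HTSeq 0.6.0 and hg38, with no role or order. Annotation and strandedness are not given in the sources used here. Repeated entries of a name (83 to 98 names per library) were kept once, 22 to 25 date-like names per library were dropped, and a name missing from a library was given 0. Totals were then 12888029 to 17555879 counts. At 3 counts the floor was 0.171 to 0.233 CPM, which covers counting error only.

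The groups and replicate numbers came from the labels. CPM was the count divided by the library total times 1000000. Differences were fitted over 16361 genes with edgeR 4.0.16 (TMM, filterByExpr, quasi-likelihood test, Benjamini-Hochberg adjustment, threshold 0.05) in R 4.3.3. The fit was also run on simulated data with changes larger than that of any member. That run does not show whether changes of the members' size would be found. Alternatives were DESeq2 1.42.0, other scalings and filters, a replicate block and leaving out each library. Exon lengths and overlaps came from GENCODE 29 and promoters from RefSeq, both on GRCh38. Tables and plots were made with Python 3.11.15. Values per library were given for all MCM2-7 subunits, and in each other role for the 2 members with the smallest edgeR p and those with the highest and lowest mean CPM, and of the other replication genes for the 5 with the smallest p. FN1, ORC2, ORC3, POLD1, POLD2, RFC1, KRT19, COL1A2 and RRM2B were chosen for printing after their values were seen. The 47 members and all lists were chosen with earlier results of these data known.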

Additional observations from a re-analysis of the deposited data

How the results depend on the processing

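The direction of the members as a set held in every alternative. Their median log2 fold change was 0.59 without TMM factors, 0.51 with upper-quartile normalization, 0.51 when low counts were not filtered, 0.46 when every library needed 10 counts, 0.50 in DESeq2 and 0.21 to 0.76 when each library was left out in turn. A replicate block gave a median of 0.49 and 0 genes were called, with 173 at an unadjusted p under 0.05. The replicate numbers were not taken as pairs in the main fit. Same-numbered libraries were barely correlated in their deviations from the group means (0.08). With 2 libraries a group and an rIL-17B pair that differed widely, this value cannot decide whether they were pairs. Leaving out each library in turn gave 0 to 9489 called genes, 0 to 45 called members and 0 to 53 called other replication genes. The highest count in each came without rIL-17B replicate 2, and both values without a PBS library were 0. The count of members higher in both rIL-17B libraries was 41 under all scalings (26.7% to 31.5% of all tested genes). It was 41 to 47 when each library was left out (37.0% to 50.1%). Leaving out a library only removes a condition, so this count could not fall below 41 and the range is no check. That alternative was chosen after seeing the data, like the same for the sums by role, which all stayed above their PBS mean. At 2-fold in place of 1.5-fold, 11 members passed in rIL-17B replicate 1 (2.54% of tested genes) and 0 in replicate 2 (0.244%). Scaled by TMM, upper quartile or DESeq2 size factors, 34 to 36 passed 1.5-fold in replicate 1 (8.98% to 9.99% of tested genes). The log2 fold change of 5 members turned negative in an alternative. With each library left out in turn, it ran from -0.041 (without PBS replicate 1) to 0.20 for ORC2 and from -0.0059 (without PBS replicate 1) to 0.061 for ORC4 (-0.012 when every library needed 10 counts), and from -0.16, -0.15 and -0.13 (without rIL-17B replicate 1) to 0.57, 0.57 and 0.52 for POLE2, RPA3 and TIPIN. The cause was not tested. With 162 to 8307 counts per member and library, precision was limited by having 2 libraries a group, of which the rIL-17B pair differed widely.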
